A study of Mus musculus with 8 samples.

Results

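The genes of the cytosolic ribosomal proteins were examined in adult oligodendrocyte progenitor cells (aOPCs) and adult oligodendrocytes (aOLs) of the mouse brain. Members were chosen by name, as symbols that start with Rpl or Rps followed by a number, and 87 of the 11315 genes in the RNA tables matched. The 9 Rps6k kinases and the X-linked Rps4x were then set aside. This left 77 members, 45 of the large subunit (Rpl) and 32 of the small subunit (Rps). The X-linked Rpl10 and Rpl36a were kept. Among the members, Rps19bp1 matches the name but is not a ribosomal protein: its product binds Rps19 and the deacetylase Sirt1. In the hydroxymethylation tables the members held 1289 of 1497075 CpG sites, counting each strand as a site. Of these, 959 lay in a promoter, 317 in an exon and 606 in an intron by the authors' annotation columns, which overlap.

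Both populations came from C57BL/6 mice of either sex at postnatal day 60, and were sorted by fluorescence after a Percoll gradient. The aOPCs were EGFP-positive cells of Pdgfra-H2BEGFP mice, in which a nuclear EGFP reports the progenitor gene Pdgfra, and the aOLs were EGFP-positive cells of Plp-EGFP mice, a line whose EGFP marks oligodendrocytes, so that population and reporter line cannot be told apart. DNA and RNA came from the same cell pellets, and each population had 2 RNA-seq libraries and 2 libraries of reduced representation hydroxymethylation profiling (RRHP), numbered replicates 2 and 3; replicate 1 was not analysed here. The study calls the RRHP inputs biological replicates and its sorted cells independent preparations. The number of animals behind a library is not given in the sources used here, so p-values measure the spread between these libraries. One label of the aOL samples profiled by RRHP gives the Pdgfra reporter as their tissue, and their titles set the group. By title the aOLs sequenced for RNA are pre-myelinating, by protocol myelinating.

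The ribosome is built from a large and a small subunit, each an RNA core dressed with proteins that are, with few exceptions, made from a single active gene and needed in equal numbers. Their mRNAs are short and abundant and carry a 5′ terminal oligopyrimidine tract (TOP), a run of C and T at the transcription start through which mTOR signalling controls their translation. Cells that divide and grow make many ribosomes, and progenitors in many tissues reduce ribosome production as they differentiate. Most of these genes also have numerous processed pseudogenes, and only uniquely aligned reads were counted, so a level may leave out reads that a gene shares with near-identical copies.

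The start sites of 6 members are shown first because the TOP tract is a known feature of these genes. They were picked as examples, and the runs of all but Rps27rt are longer than the members' median given below. Each window runs from 10 bases before the start to the bases after it, 5′ to 3′ on the gene's strand of GRCm38.p6 (RefSeq), with the longest run of C and T within 15 bases of the start in capitals.
Rps18: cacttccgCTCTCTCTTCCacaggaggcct
Rps6: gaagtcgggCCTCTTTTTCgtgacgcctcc
Rps10: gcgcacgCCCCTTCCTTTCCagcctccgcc
Rpl38: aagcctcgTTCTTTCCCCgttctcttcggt
Rps27: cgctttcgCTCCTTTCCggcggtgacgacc
Rps27rt: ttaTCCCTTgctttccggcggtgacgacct
The run was 11 bases in Rps18, 10 in Rps6 and Rpl38, 13 in Rps10 and 9 in Rps27. In Rps27rt, the single-exon copy of Rps27 (chr9:114982366-114982739, minus strand), the run in capitals was 6 bases. A RefSeq promoter window was at hand for 58 of the 77 members. Of those, 23 (39.7%) had a run of at least 8 bases, against 11.4% of the 8534 other genes tested in RNA that have a window and 11.9% of all 27025 symbols with one. The median longest run was 6 bases in members and 4 in both other sets.

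Longer windows of 4 members are shown because RRHP reads fall on their CCGG sequences, which are in capitals. Each is 270 bases long, starts 250 bases before the transcription start and is written 5′ to 3′ on the gene's strand of GRCm38.p6. They are Rps18 (chr17:33955646-33955915, minus), Rps6 (chr4:86857348-86857617, minus), Rpl34 (chr3:130730379-130730648, minus) and Rpl5 (chr5:107900278-107900547, plus).
Rps18: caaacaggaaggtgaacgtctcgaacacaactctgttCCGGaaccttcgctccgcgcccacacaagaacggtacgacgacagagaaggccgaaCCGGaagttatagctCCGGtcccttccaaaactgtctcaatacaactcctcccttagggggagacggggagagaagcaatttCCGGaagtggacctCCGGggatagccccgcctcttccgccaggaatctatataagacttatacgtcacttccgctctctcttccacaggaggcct
Rps6: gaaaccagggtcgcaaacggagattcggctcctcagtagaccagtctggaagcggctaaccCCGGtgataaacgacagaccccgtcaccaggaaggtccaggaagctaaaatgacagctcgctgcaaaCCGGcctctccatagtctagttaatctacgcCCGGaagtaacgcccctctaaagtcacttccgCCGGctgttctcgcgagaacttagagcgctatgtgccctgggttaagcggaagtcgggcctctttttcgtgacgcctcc
Rpl34: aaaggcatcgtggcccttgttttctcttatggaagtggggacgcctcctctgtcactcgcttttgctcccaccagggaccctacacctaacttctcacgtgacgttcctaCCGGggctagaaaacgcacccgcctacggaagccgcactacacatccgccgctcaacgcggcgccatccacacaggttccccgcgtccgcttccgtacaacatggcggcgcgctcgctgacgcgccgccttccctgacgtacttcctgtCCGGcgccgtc
Rpl5: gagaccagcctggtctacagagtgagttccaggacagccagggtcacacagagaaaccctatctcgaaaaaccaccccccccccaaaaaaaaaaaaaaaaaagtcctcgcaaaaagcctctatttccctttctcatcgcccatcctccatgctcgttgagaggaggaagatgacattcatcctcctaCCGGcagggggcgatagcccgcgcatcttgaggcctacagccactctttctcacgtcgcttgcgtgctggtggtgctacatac
In the order aOPC 2, aOPC 3, aOL 2 and aOL 3, used for all libraries, the reads in these windows numbered 27, 18, 11 and 45 for Rps18, 17, 19, 10 and 16 for Rps6, 10, 24, 10 and 9 for Rpl34, and 6, 3, 7 and 10 for Rpl5. CCGG occurred in 55 of the 58 member windows of 300 bases (94.8%), in 83.1% of those of other genes tested and in 52.6% of all promoters. Both strands were searched for each motif. The ETS-type sequence CCGGAAG, which contains CCGG, was found in 21 member windows (36.2%, against 19.0% of other genes tested and 9.12% of all promoters), and the YY1-type sequence AAGATGGC in 5 (8.62%, against 5.17 and 2.88%). The pyrimidine sequence CTCTTTCC occurred in 9 (15.5%, against 3.09 and 3.04%) and TATAAA in 4 (6.90%, against 6.36 and 14.2%). The median GC content was 57.7% in members, 61.7% in other genes tested and 52.7% in all promoters.

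The RNA comparison asks how the messages of ribosomal proteins differ between adult progenitors and their differentiated progeny. All 77 members had a lower mean in aOLs than in aOPCs, with a median log2 difference of −1.20 (aOL minus aOPC) and a middle range from −1.36 to −1.05, against a median of 0.02 over the 11133 genes tested. Values are log2 levels that the authors normalised to one distribution, so they are relative to the other genes of the same library. The median of the members was 11.61 in aOPC 2, 12.27 in aOPC 3, 10.76 in aOL 2 and 10.84 in aOL 3. Both aOPC medians stood above both aOL medians. On the linear scale the members made up 0.484, 0.702, 0.250 and 0.269% of the summed values of the 4 libraries. Of the 77 members, 27, 51, 7 and 8 were in the upper quartile of all genes of the library.

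No member was called by limma (p under 0.01, and under 0.05 after Benjamini-Hochberg adjustment), against a background of 0.0719% of all genes called lower and 0.00898% called higher, and the smallest adjusted p among members was 0.102. At an unadjusted limma p under 0.05, 72 members were lower in aOLs (93.5%, background 12%) and 0 were higher (background 12.1%), and at p under 0.01, 31 were lower (background 3.72%). In 74 members both aOL libraries lay below both aOPC libraries (96.1%, background 29.9%). In 64 the populations did not overlap and the difference was below −1 (background 6.93%). With 2 libraries a population, the calls turned on which library was left out: 70 members passed without aOPC 2 and 52 without aOPC 3, where 1899 and 872 genes in all were called lower. The spread then comes from the aOL pair alone and the lone aOPC library is assumed to vary like it. Without aOL 2 or aOL 3 no member passed, while 87 genes in all were called lower in either fit, and 14 and 25 members had an unadjusted p under 0.05 with a lower level in aOLs (3.12 and 3.54% of all genes). In bulk samples, fewer cells of a type and less RNA per cell cannot be told apart.

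**Figure D1:**
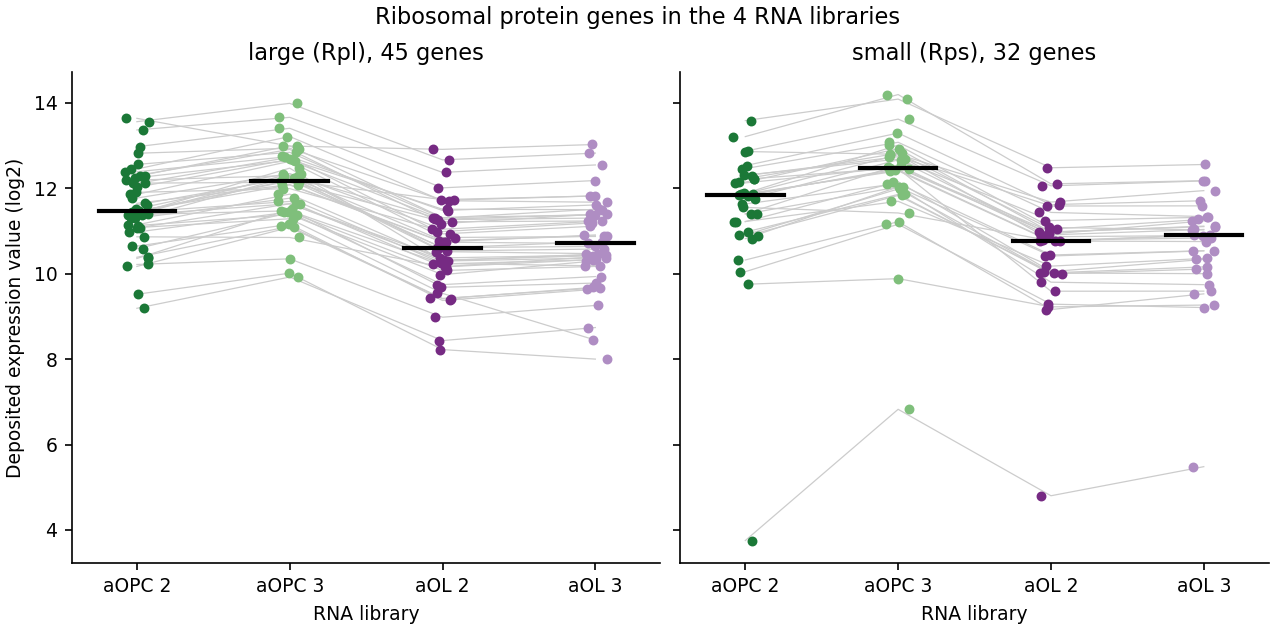
Deposited log2 expression values of the 45 large subunit genes (left) and the 32 small subunit genes (right) in each of the 4 RNA libraries. Each point is a gene, grey lines join the same gene and black bars mark medians. The medians of all members, 11.61 and 12.27 in aOPCs against 10.76 and 10.84 in aOLs, show the step between populations, and the isolated small subunit gene between 3.75 and 6.83 is Rps27rt.

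The 2 aOPC libraries differed from each other more than the 2 aOL libraries did. In 73 of 77 members aOPC 3 was above aOPC 2 (background 55.4%), with a median gap of 0.61 log2 units. The aOL libraries had a median gap of 0.11, with aOL 3 higher in 64 members. The step between populations was larger than either gap, and it was present against each aOPC library alone, with a median of −1.56 without aOPC 2 and −0.91 without aOPC 3, where 75 of 77 members were below 0 and Rpl7l1 and Rps27rt were not. The members' levels per kb correlated at a Pearson r of 0.988 within aOLs and 0.944 within aOPCs, and at 0.926 to 0.967 between a library of each population, highest for aOPC 2 with aOL 2 (across 77 genes, which are not independent replicates and share each library's normalization). The widest aOPC gaps were found in Rps27rt (3.07 log2 units), Rps20 (1.21), Rpl35a (1.15), Rps9 (1.14) and Rps23 (1.13). The products of Rps9 and Rps23 sit near the decoding site of the small subunit.

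The 6 members with the most negative differences were 3 small and 3 large subunit genes. Rps18, a protein of the head of the small subunit (chr17:33951999-33956001, minus strand), had levels of 11.83, 12.46, 9.59 and 9.59. Its aOL libraries were alike and lay far below both aOPC libraries. The difference was −2.55 ± 0.29 (SE, n = 2 libraries a population), a 5.88-fold lower level, with a limma adjusted p of 0.102. Rpl29, a large subunit protein that also binds heparin (chr9:106429454-106431568, plus strand), had levels of 11.08, 11.29, 9.54 and 8.45. The aOPC libraries nearly coincided and the aOL libraries were 1.09 apart, and the difference of −2.19 ± 0.43 (limma adjusted p = 0.133) had a larger error than that of Rps18. Rpl32, a large subunit protein (chr6:115805505-115808747, minus strand), had levels of 9.52, 10.01, 8.22 and 8.0, without overlap, and a difference of −1.65 ± 0.26 (limma adjusted p = 0.124).

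Rps20, a small subunit protein, had levels of 10.82, 12.03, 9.80 and 9.74, again without overlap but with a wide aOPC gap, and differed by −1.65 ± 0.46 (limma adjusted p = 0.164). Rps14, whose loss underlies the anaemia of the 5q− syndrome, had levels of 13.21, 14.20, 12.11 and 12.18 (−1.56 ± 0.39, limma adjusted p = 0.152). Rpl34, a large subunit protein, had levels of 11.41, 12.47, 10.31 and 10.46 (−1.56 ± 0.42, limma adjusted p = 0.160). In both genes each aOL library was below each aOPC library and aOPC 3 was the highest of the 4. By subunit, the median difference was −1.12 for the 45 Rpl genes and −1.31 for the 32 Rps genes, a gap that was not tested.

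Only 3 members overlapped between populations. Rpl4, which lines the exit tunnel of the large subunit, had levels of 13.64, 12.99, 12.91 and 13.03, so that aOPC 3 fell between the 2 aOL libraries; the difference was −0.34 ± 0.29 (limma adjusted p = 0.501). Rpl7l1, a paralog of Rpl7 (chr17:46773907-46782672, minus strand), had levels of 11.46, 12.17, 11.74 and 11.82, with both aOL libraries inside the aOPC range, and differed by −0.04 ± 0.31 (limma adjusted p = 0.950). The retrogene Rps27rt had levels of 3.75, 6.83, 4.80 and 5.48, close to the low end of the table, and its aOPC libraries were farther apart than those of any other member (−0.15 ± 1.11, limma adjusted p = 0.944). Rps19bp1, the member that is no ribosomal protein, had levels of 9.75, 9.89, 9.22 and 9.27 (−0.57 ± 0.19, limma adjusted p = 0.190). Without it, the median of the other 76 members was −1.21.

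**Figure D2:**
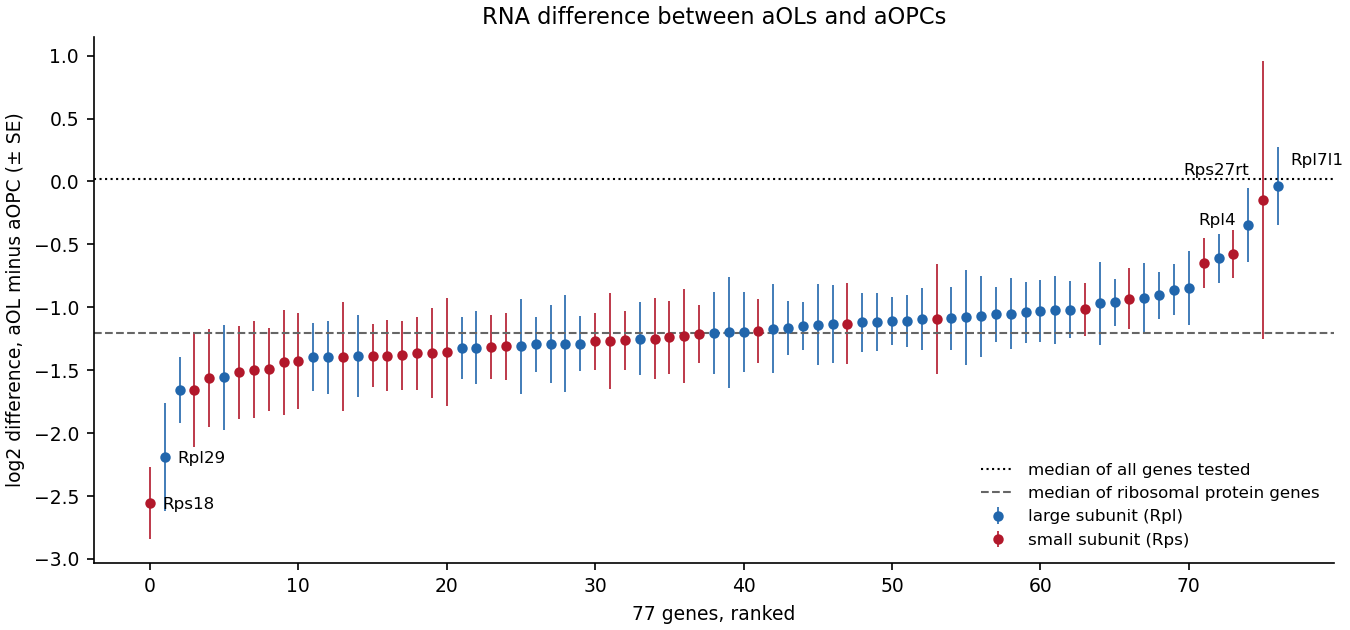
Log2 difference in RNA level (aOL minus aOPC) of the 77 members, ranked, with bars of 1 standard error from the limma fit (2 libraries a population). The dashed line is the members' median of −1.20 and the dotted line the median of all genes tested, 0.02. All 77 points lie below 0, from −2.55 in Rps18 to −0.04 in Rpl7l1.

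Paralogs let a canonical gene be read beside its relative. Rpl7 had levels of 12.98, 13.41, 12.01 and 12.18 and a difference of −1.09, whereas Rpl7l1 overlapped between populations as above. Rpl22, an RNA-binding protein of the large subunit, had levels of 10.87, 10.85, 10.16 and 10.33 (−0.61), and its paralog Rpl22l1 levels of 10.65, 11.16, 9.37 and 9.64 (−1.40). Here the paralog had the more negative difference of the pair. Rpl36a (10.17, 11.09, 9.41 and 9.68) and Rpl36al (11.07, 11.64, 10.30 and 10.37) differed by −1.08 and −1.02. Rps27 (12.15, 12.93, 10.97 and 11.12) differed by −1.49 and the p53-responsive Rps27l (11.55, 11.42, 10.77 and 10.91) by −0.65. In each of these genes except Rpl7l1 both aOL libraries were below both aOPC libraries, and the differences within pairs were not tested. Rpl3, at the peptidyl transferase centre, had levels of 13.56, 13.99, 12.67 and 12.83 (−1.03), and Rpl10, which joins the large subunit last, had levels of 12.03, 12.68, 11.51 and 11.50 (−0.85). Their tissue-restricted relatives Rpl3l and Rpl10l, and Rpl39 with Rpl39l, were not analysed here in RNA.

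Members with known further roles also had lower means in aOLs. Rpl5 and Rpl11, which with 5S RNA form the particle that binds Mdm2, had levels of 11.91, 11.99, 10.99 and 11.19 (−0.86) and 11.38, 11.64, 10.37 and 10.44 (−1.11). Rps6, the substrate of S6 kinase, had levels of 12.30, 12.74, 11.59 and 11.59 (−0.93). The populations did not overlap in any of these 3 genes. Rps27a, made as a fusion with ubiquitin, had levels of 12.53, 13.30, 11.62 and 11.71 (−1.25). It was lower in each aOL library than in either aOPC library. Rps19 (11.87, 12.79, 10.79 and 10.84) and Rpl35a (10.36, 11.51, 9.68 and 9.78), in which mutations cause Diamond-Blackfan anaemia, differed by −1.52 and −1.20. Rpl38, required for translation of Hox messages, had levels of 11.61, 12.24, 10.61 and 10.75 (−1.25). Rps3, at the mRNA entry of the small subunit, had levels of 13.59, 14.09, 12.48 and 12.56 (−1.32), and Rpl13a, known for a second role in silencing inflammatory transcripts, 11.30, 11.77, 10.24 and 10.19 (−1.32). Among these genes with further roles, Rpl35a had an unadjusted limma p of 0.0506 and its aOPC gap was close to its difference.

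Between genes, levels were compared per length, as the log2 value minus the log2 of the principal transcript's length in kb. The highest were Rps27 (mean 13.33; 13.68, 14.46, 12.51 and 12.65 by library), Rps14 (13.27), Rps29 (13.20) and Rpl41 (12.84), which encodes the smallest ribosomal protein. Rps27, Rps14 and Rps29 lay closer together than their own libraries did. The lowest were Rps27rt (6.63), Rps15a (8.35), Rps20 (8.71) and Rpl32 (9.08). For Rps15a and Rps20 the transcript taken by the annotation is 5179 and 3706 bases long, against a median of 860 bases over members, so that their place depends on that choice of transcript.

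The members' messages are short. Across all genes tested with a length (10738), the difference rose with mRNA length, whose median was 3119.5 bases. In the shortest decile of genes, from 171 to 1291 bases, 64 members had a median of −1.23 (64 of 64 below 0) and the other 1012 genes had a median of −0.73, with 92.5% below 0 and 79.5% lower in aOLs without overlap. The median of other genes was 0.47 in the ninth decile and 0.40 in the longest. The same short genes had a median aOPC gap of 0.47, so length moved with both the population and the aOPC library.

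When each library's trend on mRNA length was removed before the fit, a setting added after the data were seen, the members' median was −0.39 and 72 of 77 were below 0, the exceptions being Rpl4, Rpl36a, Rps27l, Rps27rt and Rps19bp1. Then 62 were lower without overlap (26.3% of all genes were) and 2 higher, and 22 had an unadjusted limma p under 0.05 with a lower level in aOLs (8.78% of all genes). No member was called, with a smallest adjusted p of 0.113. In the shortest decile the members' median was −0.35 (60 of 64 below 0), against 0.01 for the other genes (48.5% below 0). Members thus lay below other genes of their length, by a smaller amount than before. What made the difference move with length was not tested.

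**Figure D3:**
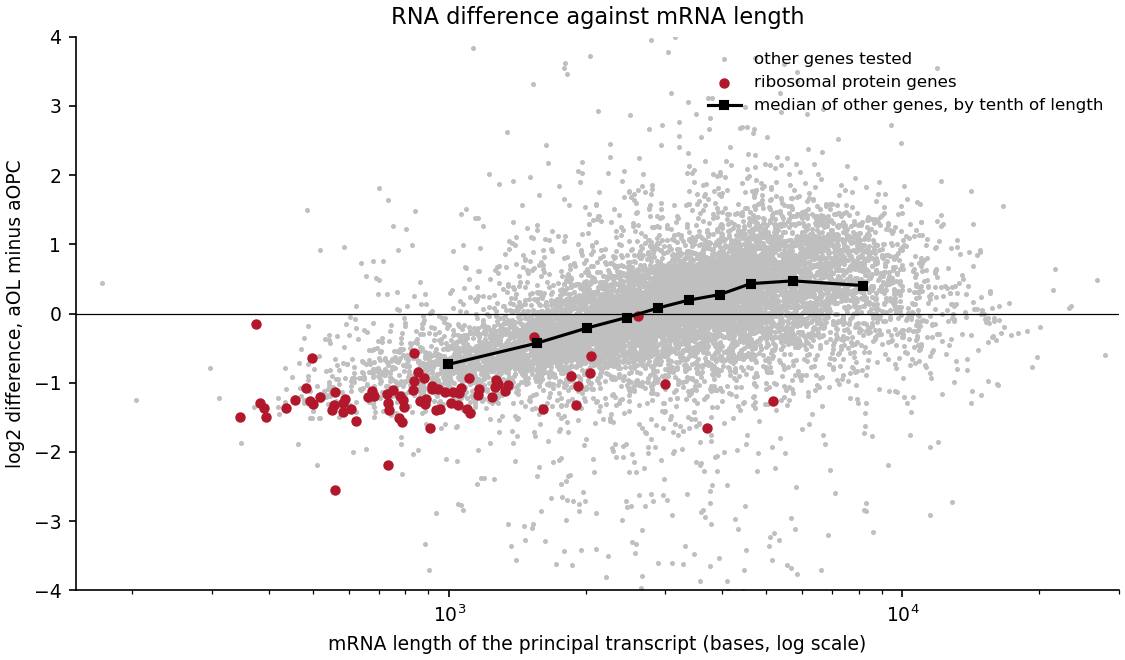
Log2 difference in RNA level (aOL minus aOPC) against the length of the principal mRNA in bases (log axis). Grey points are other genes tested, of which 67 fall outside the axes, red points are the members and black squares join the medians of the other genes in each decile of length. The black line climbs from −0.73 in the shortest decile to 0.47 in the ninth, and most red points lie under it.

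Other parts of the translation machinery were read from fixed lists, and limma called none of their genes. Over all genes, 29.9% were lower and 31.9% higher in aOLs without overlap. At an unadjusted limma p under 0.05, 12% of all genes were lower and 12.1% higher. The 8 ribosomal proteins outside the name rule (Rpsa, Rps4x and the stalk proteins Rplp0, Rplp1 and Rplp2 among them) had a median of −1.14, were all lower in aOLs without overlap and had an unadjusted p under 0.05 in 7. Rpsa, the small subunit protein also known as the laminin receptor, had levels of 13.38, 13.96, 10.81 and 10.83 (−2.85, limma adjusted p = 0.0780), a more negative difference than that of any member, and Rps4x had the least negative one (−1.0). The 76 mitochondrial ribosomal proteins, which serve a separate ribosome, had a median of −0.72 and a median mRNA length of 1302 bases. Of them, 65 were lower without overlap and 39 lower at p under 0.05, with a range from −1.43 (Mrpl20) to −0.05 (Mrps9). Other genes of the shortest and the next length decile had medians of −0.73 and −0.43, with 79.5 and 60.5% lower without overlap. The 81 nuclear-coded respiratory chain subunits, another family of short messages (median 870 bases), had a median of −0.95, with 75 lower and 1 higher without overlap, and 56 lower at p under 0.05 (Ndufa3 −1.51, Cox6a2 0.76).

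The other lists of the pathway have longer messages, and their counts stand beside a background of 29.9% of all genes lower and 31.9% higher in aOLs without overlap. Of 52 initiation factors, 23 were lower and 13 higher without overlap, with 4 at p under 0.05 in each direction and a median of −0.21, from −1.12 for Eif3i, a subunit of the scaffold eIF3, to 1.45 for Eif2ak2, the kinase PKR. Of 11 elongation and termination factors, 6 were lower and 3 higher, with 3 and 0 at p under 0.05 (median −0.69). Eef1a1, which delivers tRNA to the ribosome, was lowest (−1.07) and the release factor gene Gspt2 highest (0.36). Of 41 genes of ribosome assembly and rRNA synthesis, 12 were lower (29.3%, near the background) and 10 higher, with 3 and 5 at p under 0.05 (median −0.01, from Nhp2 at −1.18 to Tsr1 at 1.08). Of 19 genes of TOP mRNA and growth control, 3 were lower and 6 higher, with 0 and 3 at p under 0.05 (median 0.05, from Yy1 at −0.42 to Gabpa at 0.96). Median mRNA lengths in these 4 lists were 2514.5, 2553, 2597 and 4586 bases.

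Markers of the sorted cells were read beside these values. Of 11 progenitor markers measured, 5 were lower and 2 higher in aOLs without overlap, and these and the counts that follow stand beside 29.9% lower and 31.9% higher over all genes. Pdgfra itself had levels of 7.54, 5.47, 4.98 and 1.63, so the aOPC libraries differed in it by more than aOPC 3 and aOL 2 did. The summed linear level of the 10 myelin genes was 6489823, 5608179, 6273563 and 6405923, as high in aOPCs as in aOLs. The 8 astrocyte markers (2 lower, 1 higher) summed to between 10937 and 13672, and none was under a log2 level of 5 in any library. The 5 neuron markers (3 lower) summed to between 3242 and 5587, most of it from the tubulin gene Tubb3 (11.84, 12.41, 11.57 and 11.76), while 3 of the 5 were under 5 in aOPC 3 and in aOL 3, and Syt1 was under 5 in all libraries. The 10 microglia markers (5 lower, 1 higher) summed to 6214, 4006, 4426 and 3312, the 3 endothelial and mural markers (2 higher) to 568, 796, 975 and 2073, and the 7 markers of newly formed oligodendrocytes (3 lower) to between 18567 and 53440. The progenitor markers summed to between 154904 and 184530, most of it from genes of the whole lineage such as Olig1 (16.86, 16.77, 16.38 and 16.45). The members were highest in aOPC 3, whereas Pdgfra and Neu4 (9.90, 7.07, 3.03 and 3.61) were highest in aOPC 2, and the part of other cells in the members' difference was not tested.

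The RRHP comparison asks whether 5-hydroxymethylcytosine (5hmC) at these genes differs between the populations, relative to the rest of each library. Counts were scaled to the library total, and in the fits also by TMM, so a 5hmC difference shared by most sites is removed. A lack of calls is therefore no statement about the absolute level of 5hmC. RRHP counts reads at CCGG sites whose 5hmC, once glucosylated, blocks the enzyme MspI. The libraries held 7113237, 17121440, 15923775 and 27057859 counts, of which 4179, 6593, 6104 and 11512 fell on member sites. A floor of 3 counts stands for 0.422, 0.175, 0.188 and 0.111 CPM (a count relative to the total of its library), and floors cover counting error only, since reads carried no molecular identifiers. The members Rps27, Rps27rt and Rps28 had no site in the tables.

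Near their starts, members and other genes were read in CCGG sequences that often lie in CpG islands. In islands lay 71.5% of the member sites in promoters, close to the 65.9% of all promoter sites. Over all classes the share was 59.7% in members and 11.7% in all sites, but promoters held 959 of the 1289 member sites and 208750 of all 1497075. From 250 bases before to 50 after the start, the members had 0.263, 0.0878, 0.0719 and 0.107 CPM per CCGG and strand, and the other genes tested 0.196, 0.0724, 0.0645 and 0.0912. The value was highest in aOPC 2 in both sets, and the other aOPC library lay between the aOL libraries. The share of counts in islands was likewise highest in aOPC 2, at 43.0, 23.8, 21.2 and 27.1% of member counts and 5.74, 2.47, 2.38 and 3.32% of all counts. Outside islands, member sites in introns had a mean of 0.689, 0.582, 0.618 and 0.608 CPM, against 0.791, 0.880, 0.898 and 0.849 for all intron sites. Member sites in exons outside islands had 0.624, 0.601, 0.631 and 0.683 CPM, against 0.915, 0.966, 0.984 and 0.961. In both classes the members were below all sites in each library. Summed over a gene body, the median member had 4.92, 2.51, 2.70 and 3.07 CPM and the median of all bodies tested 12.9, 12.4, 12.5 and 12.6, sums that also count how many sites a body holds.

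**Figure D4:**
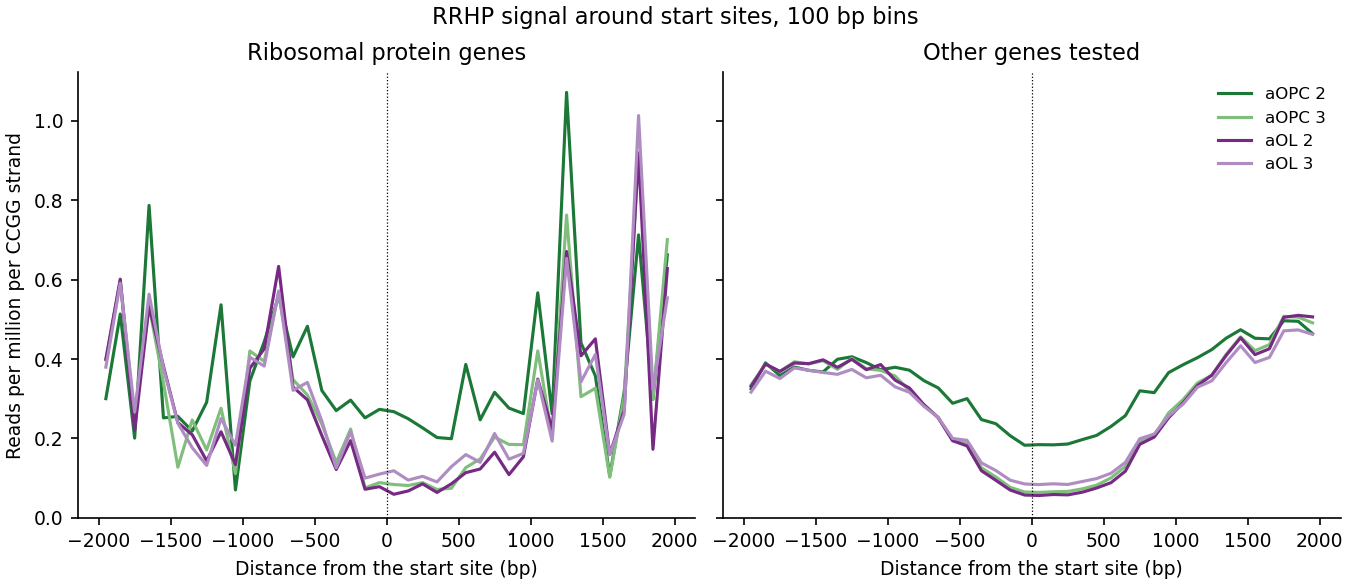
RRHP CPM per CCGG and strand in bins of 100 bases around the transcription start, for the 77 members (left) and the other genes tested (right), 1 line per library. The lines of other genes dip at the start. In the first bin after the members' start aOPC 3, aOL 2 and aOL 3 are at 0.0840, 0.0593 and 0.119, and aOPC 2, whose line has no clear dip, at 0.267. Member bins far from the start hold as few as 8 CCGG strands, so their peaks rest on few sites.

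A minimum of 10 reads in 2 or more libraries was met by 153 member sites, of which edgeR (quasi-likelihood, adjusted p under 0.05) called 5 higher in aOLs (background 1.21%) and 2 lower (background 1.08%), and DESeq2 called 4 and 2. All 7 met the minimum only through the libraries of the population in which they were higher, so the filter itself favours a difference at them, and their counts and folds are given as a description. At an unadjusted p under 0.05, 12 were higher (background 5.45%) and 4 lower (background 4.31%). The median difference was −0.05. The sites below, other than that of Rpl17, are written on the plus strand of GRCm38 in windows of 30 bases with the CCGG in capitals. They are the sites called, followed by the most counted member site, which lies in an intron of Rps6.
Rpl34 (chr3:130729404-130729433): ctcttacaaaggcCCGGttctaaagaatcc
Rpl8 (chr15:76906215-76906244): tcattgctgcccgCCGGactggacggctgc
Rps18 (chr17:33952150-33952179): agcaggaggcgagCCGGtggactgtgcagc
Rps3 (chr7:99480782-99480811): agagaaacaaaatCCGGttaaagccaggtg
Rpl18 (chr7:45717215-45717244): tctctccttctgcCCGGggttccctcacca
Rps10 (chr17:27634076-27634105): gggccgaggcctgCCGGtctcgggacggct
Rps6 (chr4:86855626-86855655): accagcttagaacCCGGtctctccaaaatc
Several of these sites had no read at all in one population. The site at Rpl34 (position 130729418, plus strand) lay in the authors' promoter column and inside the gene by GENCODE. It had 14, 21, 0 and 0 counts (1.60 ± 0.524 CPM, SD, n = 2, in aOPCs). Taken against 3 counts in each aOL library, the level was at least 10.7-fold lower in aOLs. The Rpl8 exon site (position 76906230, minus strand) had 0, 0, 24 and 45 counts (at least 5.31-fold higher). Reads on the other strand of that CCGG numbered 2, 6, 4 and 10, so the aOPC libraries were not empty there. The Rps18 intron site (position 33952164, plus strand), also in the promoter column of B3galt4, had 0, 0, 20 and 30 counts (at least 3.96-fold higher), with 0, 0, 3 and 3 on the other strand. On the called strand these sites had reads in 1 population only.

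The same held for an exon site of Rpl17 (chromosome 18, position 75003233, plus strand), with 0, 0, 38 and 57 counts (2.25 ± 0.198 CPM, SD, n = 2, in aOLs), at least 7.53-fold higher in aOLs. The remaining calls had reads in both populations. The Rps3 intron site (position 99480796, plus strand) had 0, 1, 15 and 81 counts, with the aOL libraries at 0.942 and 2.99 CPM. The site in the promoter column of Rpl18 and an intron of Sphk2 (position 45717229, plus strand) had 17, 29, 0 and 7 counts (−3.69 ± 0.70). The Rps10 exon site (position 27634091, minus strand) had 1, 2, 16 and 33 counts and 1, 3, 6 and 10 on its other strand. None of the 7 calls passed without aOPC 3, where edgeR called 0 sites of the members (0.118% of all sites higher and 0.569% lower), and 3 sites were called higher without aOL 3 (1.06% of all sites). With at least 10 reads required in every library, 55 member sites could be tested and 0 were called, where 0.134% of all sites were called higher and 0.153% lower, so that 0 of 55 is no result about the members.

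Sites at which 1 population had at most 3 counts in both libraries were not spread evenly over the genome. Over 532 bins of 5 Mb, such called sites made up a median of 0.55% of the tested sites of a bin. The bin of Rps7 held 18.4% (rank 3), that of Rps27a 13.6% (rank 9) and that of Rpl11 11.9% (rank 13). For the genes with the most negative RNA differences the share was 4.75% at Rps18 (rank 51), 4.35% at Rpl34 (rank 60), 1.71% at Rpl32, 1.70% at Rpl29, 0.321% at Rps14 (rank 374) and 0.0% at Rps20 (rank 493), so that these genes lie on both sides of the median bin. The bin of Rpsa held 7.11% (rank 32). The populations come from different reporter lines, and the part of the lines in these sites was not tested.

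The 6 most counted member sites did not pass the test. The Rps6 intron site (position 86855640, plus strand) had 30, 134, 142 and 248 counts (0.45 ± 0.29, edgeR adjusted p = 0.687) and 0 on its other strand in every library. The others included an intron site of Rps10 with 48, 131, 103 and 150 counts, Rpl7l1 exon sites with 46, 127, 102 and 152 and with 18, 105, 101 and 147, and an intron site of Rpl21 with 33, 73, 81 and 131.

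Summed over promoters, no member of 67 tested was called by edgeR or DESeq2 (background 0.418% higher and 0.35% lower, smallest edgeR adjusted p 0.231). At an unadjusted edgeR p under 0.05, 3 were higher (background 4.18%) and 1 lower (background 1.79%), but on library totals without TMM 0 were higher and 3 lower, and with DESeq2 0 and 1. Rpl5 had the most counted promoter, with 116, 235, 239 and 433 counts or 16.3, 13.7, 15 and 16 CPM, of which only the 6, 3, 7 and 10 counts given above lay in its printed window. Rpl21, Rpl28 and Rpl22 were among the 5 most counted. Rpl34 had 66, 90, 32 and 62 counts (9.28, 5.26, 2.01 and 2.29 CPM), with both aOL libraries below both aOPC libraries and a difference of −1.22 ± 0.38 (edgeR adjusted p = 0.231), and the called Rpl34 site gave 14 and 21 of its aOPC counts. The promoters of Rpl10 (7, 7, 13 and 43 counts, 1.41 ± 0.54), Rpl13 (39, 32, 81 and 96, 0.93 ± 0.40) and Rpl36a (16, 25, 33 and 74, 0.87 ± 0.41) had an unadjusted p under 0.05 with a higher fitted level in aOLs under TMM and not on library totals. Rpl10 and Rpl36a are X-linked, and the sex of the animals behind each library is not given in the sources used here. In CPM, 0 promoters were higher without overlap (background 6.8%) and 17 lower (background 20.7%). The median member promoter had 4.78, 2.10, 1.95 and 2.77 CPM, and the fit scales these by TMM factors that ran from 0.757 (aOL 2) to 1.75 (aOPC 2). On library totals alone the members' median moved from −0.01 to −0.61 and that of all promoters from −0.01 to −0.60, so a direction for promoters as a group depends on the scaling.

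Over gene bodies (exon or intron sites), no member of 67 tested was called by edgeR or DESeq2 (background 0.162% higher and 0.687% lower, smallest edgeR adjusted p 0.490). At an unadjusted edgeR p under 0.05, 3 were higher (Rpl10, Rpl8 and Rpl17, background 2.82%) and 3 lower (Rpl12, Rpl29 and Rpl31, background 4.48%). The median difference was −0.28, against 0.00 for all bodies, but it was 0.07 without aOPC 2 and −0.62 without aOPC 3, so its sign rests on aOPC 2. In CPM 8 were higher without overlap (background 21%) and 14 lower (background 17.8%). Rpl7l1 had the most counted body, with 178, 509, 479 and 749 counts, or 25, 29.7, 30.1 and 27.7 CPM, and the populations overlapped in it as they did in its RNA. Rpl18 (125, 213, 316 and 515 counts), Rpl22 and Rps6 followed. Rpl29, whose RNA difference was second among members, had 38, 40, 29 and 35 counts in its body (−1.27 ± 0.55, edgeR adjusted p = 0.662). Rpl12 had 82, 104, 65 and 132 (−0.93 ± 0.33, edgeR adjusted p = 0.490), of which aOPC 2 was the highest in CPM, at 11.5 against 4.08 to 6.07. Without aOPC 3, where the lone aOPC library is aOPC 2, edgeR called 23 member bodies lower, and 12.5% of all bodies.

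**Figure D5:**
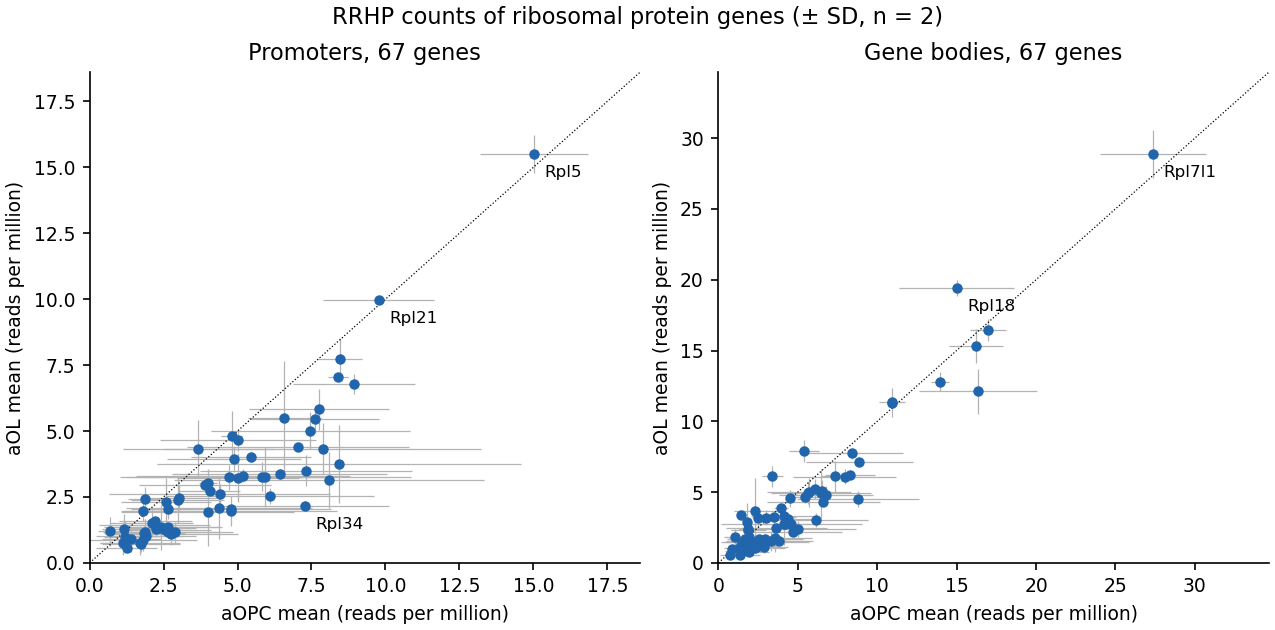
Mean RRHP CPM in aOLs against aOPCs for the 67 promoters (left) and 67 gene bodies (right) of members tested, with bars of 1 SD over the 2 libraries of each population; the dotted line marks equal values. Many promoters lie under the line with wide horizontal bars (the median promoter had 4.78 CPM in aOPC 2 and 2.10 in aOPC 3), Rpl5 and Rpl21 lie close to it, and Rpl7l1 stands highest among bodies at 27.4 and 28.9.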

How the data were processed

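RNA-seq of 2 aOPC and 2 aOL libraries and RRHP of 2 and 2 were used. For RNA, the authors deposited log2 values for named genes. By the study's methods and the submitters' processing notes, reads from low-input libraries were aligned with BWA to mm10, counted with featureCounts and normalised with DESeq2 (1.2.5 in the notes, another version in the methods). Their near-equal distributions remove any difference shared by most genes, and they carry no depth, so no interval was given. Since the values are log2 levels and not counts, limma 3.58.1 was fitted with population as the only term to the 11133 genes that reached a log2 level of 5 in 2 or more libraries.

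For RRHP, the authors deposited raw counts of reads for each strand of a CpG, all at a CCGG of GRCm38; the aligner and duplicate treatment are not given in the sources used here. A site missing from a table was given 0. edgeR 4.0.16 (TMM on library totals) tested sites with 10 reads in 2 or more libraries, and promoters and bodies after filterByExpr; DESeq2 1.42.0 was the alternative. Calls needed an adjusted p under 0.05, in RNA also p under 0.01. Tables and figures were made in Python 3.11.15 (pandas 2.3.3, numpy 2.4.6, matplotlib 3.10.9) and fits in R 4.3.3. The RNA, promoter and gene body tests were also run on simulated data, and the site test was not.

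The members, gene lists and alternatives were chosen with earlier results of these data known. Named genes were those called; the 6 largest differences in either direction without overlap; the 4 highest and lowest per length; the 5 widest aOPC gaps; fixed paralog pairs and genes with further roles; the most counted promoters, bodies and sites; and the extremes of each other list. Genes overlapping between populations were named after their values were seen. Gene positions and lengths are from GENCODE, and the promoter windows are from RefSeq. Some named genes are not reported here.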

Additional observations from a re-analysis of the deposited data

How the results depend on the processing

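In RNA, the members' median kept its sign in every alternative, from −1.56 to −0.91 with 1 library left out and −0.39 with the mRNA length trend removed. The count called lower was 0, as against 1 (Rps18) with the replicate block and 0 to 70 with 1 library left out, and over all genes it was 8, as against 97 and up to 1899 (15 with a trend in eBayes, 0 without the filter, 1 with a level of 8 or more in all libraries and 0 with the length trend removed). Members lower at p under 0.05 numbered 14 to 76 with 1 library left out and 22 with the length trend removed, against 72. Those higher numbered 0 to 1, and those higher without overlap 0 to 2, and 2 with the length trend removed, against 0. Leaving out an aOPC library rests the spread on the aOL pair; the cause of the other moves was not tested.

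For RRHP, sites called were 0 higher and 0 lower with at least 10 reads in every library, where fewer sites were tested, and with 1 library left out 0 to 5 higher and 0 to 2 lower. With 1 library left out, promoters called were 0 to 2 higher and 0 to 1 lower, and bodies 0 to 2 higher and 0 to 23 lower; without aOPC 3, edgeR called 9.60% of all promoters and 10.2% of all bodies higher, and 1.43 and 12.5% lower.

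Of the alternatives run for single genes and sites named, 441 kept their direction and side of the threshold, 50 passed it, 10 (all sites) no longer did and 22 changed sign, none of these past the threshold. In RNA the length trend turned Rpl36a to 0.052, Rpl4 to 0.080, Rps19bp1 to 0.26, Rps27l to 0.47 and Rps27rt to 1.11. With 1 library left out, RNA ranged from −0.40 to 0.32 in Rpl7l1 and from −1.68 to 1.39 in Rps27rt. The Rpl7l1 site at 46775600 ranged from −0.051 to 0.97 and the Rpl21 site from −0.14 to 0.24. Promoters ranged from −0.21 to 1.30 in Rpl21, −0.20 to 0.44 in Rpl28 (−0.38 without TMM) and −0.35 to 0.84 in Rpl22 (−0.25 without TMM). Bodies ranged from −0.068 to 0.21 in Rpl7l1, −0.13 to 0.037 in Rpl22 and −0.17 to 0.015 in Rps6. The cause was not tested.

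Replicate numbers do not pair animals, and same-numbered libraries did not deviate together (correlation of replicate gaps −0.0736 in RNA, −0.0380 at sites, −0.410 in promoters and −0.412 in bodies). With the replicate block edgeR called 5 sites higher and 2 lower and no promoter or body. Depth limits RRHP most in aOPC 2.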
